A study of Homo sapiens with 9 samples.

Results

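The subunits of the oxidative phosphorylation (OXPHOS) machinery were followed in MOLM13 cells in which the RNA-binding splicing factor RBM5 was removed or overexpressed. Members were chosen by symbol from the protein-coding rows of the gene count table: the NDUFA, NDUFB, NDUFC, NDUFS and NDUFV families with NDUFAB1 for complex I, SDHA to SDHD for complex II, the UQCR genes for complex III, COX4 to COX8 for complex IV, the ATP5 genes for complex V, and the MT-ND, MT-CYB, MT-CO and MT-ATP genes of the mitochondrial chromosome. This gave 105 rows of 57820, of which 92 lie in the nucleus and 13 on the mitochondrial chromosome. The rows carry 101 symbols, because SDHD, NDUFB8, UQCR11 and NDUFA7 each name 2 rows, the second a readthrough or overlapping gene model.

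MOLM13 is an acute myeloid leukemia line with a KMT2A rearrangement and an internal tandem duplication of FLT3. The 9 libraries form 3 groups of 3. RBM5 OE cells carried a lentivirus in which the EFS promoter drives RBM5 joined through P2A to a Venus reporter. RBM5 KO cells carried Cas9 and the single guide RBM5-sg1, and CTRL cells carried Cas9 and a non-targeting guide. CTRL served as the reference for both, so that the OE cells differ from it in the vector as well as in RBM5, and the effects of the 2 cannot be told apart. A single RBM5 guide stands for the knockout, and the day of harvest is not given in the labels. RNA was depleted of ribosomal RNA, which keeps transcripts with or without a poly(A) tail. The level of RBM5 RNA does not show how much protein was left in KO cells.

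Respiratory complexes I, III and IV pump protons across the inner mitochondrial membrane as electrons pass from NADH to oxygen, complex II feeds electrons from succinate into the same chain, and complex V is the ATP synthase that uses the gradient. Most subunits are encoded in the nucleus, made in the cytosol and imported, whereas a small set of core membrane subunits of complexes I, III, IV and V is transcribed from the mitochondrial chromosome as long precursors that are cut into mRNAs. Complex II has only nuclear subunits. Acute myeloid leukemia cells are known for their reliance on this pathway.

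Total expected counts per library were 25522952 to 27871988. RBM5 averaged 403 ± 20.3 CPM (counts scaled to a fixed library total) in OE cells, 74.6 ± 4.49 CPM in KO cells and 117 ± 4.84 CPM in CTRL cells (SD, n = 3 each), a log2 fold change of 1.78 ± 0.07 (SE) in OE cells and -0.65 ± 0.08 in KO cells (adjusted p = 4.11e-08 and 0.00692, edgeR quasi-likelihood test). The KO call on RBM5 missed the threshold without CTRL replicate 1 (adjusted p = 0.0606) and on log2(TPM + 1) (adjusted p = 0.0557). All 8 myeloid markers were detected, with a summed level of 1749 to 1811 TPM (transcript abundance per length, scaled to a fixed total) in OE cells, 2949 to 3305 TPM in KO cells and 2337 to 2485 TPM in CTRL cells, while T cell, B cell, erythroid and stromal or epithelial lists each summed to at most 7.91 TPM. The members of the myeloid list went both ways, with 3 called lower and 2 higher in OE cells (median -0.06) and 1 lower and 1 higher in KO cells (median -0.01). The part of these markers in the subunit values was not tested, and in bulk RNA fewer cells of a kind and less RNA per cell cannot be told apart. CTRL replicate 3 and KO replicate 1 were left out together in an alternative chosen with earlier results of these libraries known, in which RBM5 stayed lower in KO cells (-0.64, adjusted p = 1.59e-05).

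Sequences that bear on how the mitochondrial mRNAs were counted are shown first. On the GRCh37 mitochondrial chromosome the end of MT-ATP8 overlaps the start of MT-ATP6 by 46 bases (chrM:8527-8572), and the end of MT-ND4L overlaps the start of MT-ND4 by 7 bases (chrM:10760-10766). The shared bases are in capitals, with flanking bases in lower case.
MT-ATP8 and MT-ATP6: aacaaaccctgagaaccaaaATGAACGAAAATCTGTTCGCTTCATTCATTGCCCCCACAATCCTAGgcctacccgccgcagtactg
MT-ND4L and MT-ND4: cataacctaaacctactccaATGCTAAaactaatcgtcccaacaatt
A nuclear copy of MT-ATP6, MTATP6P1 (chr1:569076-569756, plus strand), is identical to chrM:8527-9207 at 671 of 681 bases, or 98.5%. Reads from the shared bases and from the copy cannot be placed with certainty, so the values of MT-ATP8, MT-ATP6 and MT-ND4L are uncertain. Rows named as nuclear copies of mitochondrial subunit genes numbered 174, of which 2 had enough counts to be tested. Only MTATP6P1 was compared by sequence, so the other mitochondrial subunits are not shown to be free of this problem. MT-ND6, which is read from the opposite strand to the other mitochondrial subunits, was counted without strand, and its reads cannot be separated from antisense RNA of the other strand.

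Most nuclear subunits were lower in RBM5 OE cells than in CTRL cells, by small amounts. Of the 81 nuclear rows that passed the filter on low counts, 53 were lower, 3 were higher and 25 were not called in OE cells. Over all 14370 genes tested, 20.2% were called lower and 19.8% higher. The median nuclear subunit had a log2 fold change of -0.25, against 0.01 over all genes tested, and 73 of 81 were negative. In 58 of 81, all 3 OE libraries lay below all 3 CTRL libraries, which held for 25.5% of all genes tested, and in 3 all OE libraries lay above, against 26.1%. The count of lower nuclear rows was 38 to 54 when each library was left out in turn and 30 in a fit of all 9 libraries. The lower calls numbered 25 of 40 in complex I, 3 of 4 in complex II, 8 of 8 in complex III, 8 of 12 in complex IV and 9 of 17 in complex V. Complexes were assigned by symbol alone. NDUFA4 and NDUFA4L2 were thus counted in complex I, COX6A1P2 in complex IV, and ATP5S and ATP5SL (now named DMAC2L and DMAC2) in complex V.

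**Figure D1:**
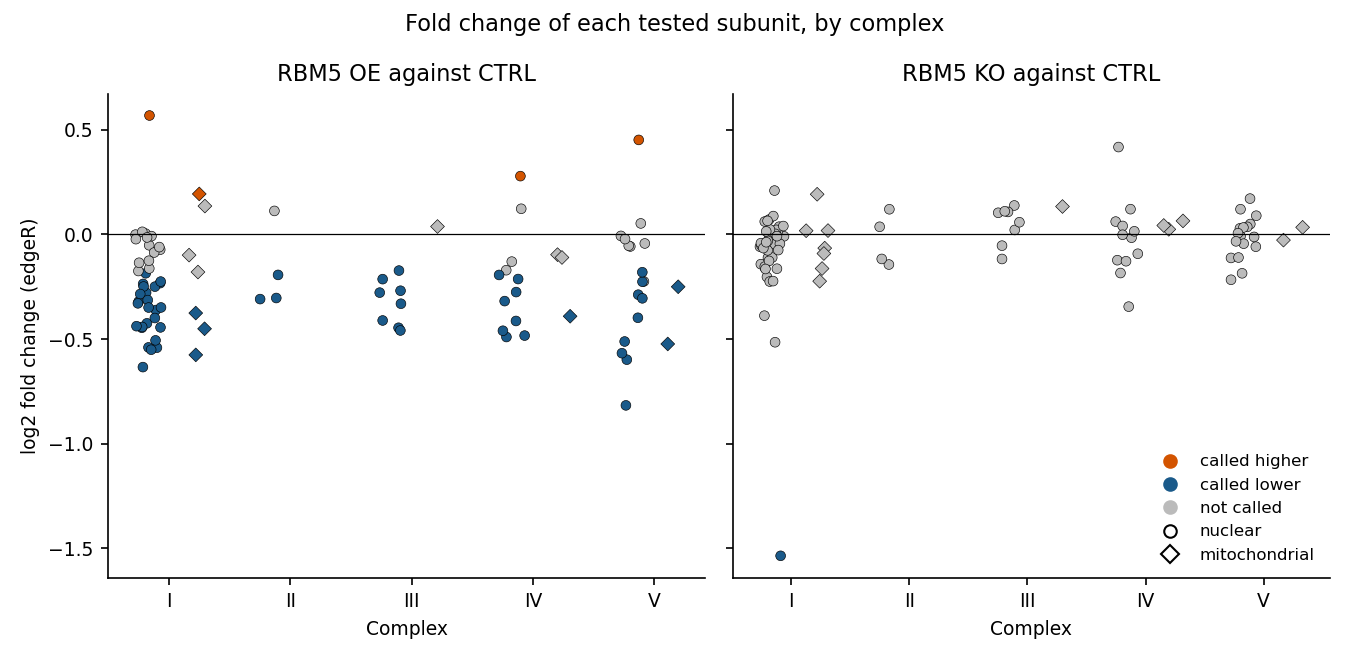
Log2 fold change of each tested subunit (y axis, edgeR) by complex (x axis), for RBM5 OE against CTRL and RBM5 KO against CTRL. Circles are nuclear and diamonds mitochondrially encoded subunits, orange is called higher, blue called lower and gray not called. In RBM5 OE 53 nuclear circles are blue and 3 orange, and in RBM5 KO a single circle, NDUFA4L2, is blue.

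The c subunit of the ATP synthase, which forms the rotating ring, is encoded by ATP5G1, ATP5G2 and ATP5G3, whose mature products are the same protein. ATP5G3 (chr2:176040986-176046438, minus strand) had 98.5, 105 and 107 CPM in OE cells, against 173, 194 and 181 CPM in CTRL cells. It fell by 0.82 ± 0.07 on the log2 scale (SE, adjusted p = 8.57e-06, edgeR quasi-likelihood test), which was the smallest adjusted p of any nuclear member. ATP5G1 (chr17:46970127-46973233, plus strand) had 34.3, 39.3 and 38.9 CPM in OE cells, against 53.7, 56.8 and 60.1 CPM in CTRL cells. In both genes no OE library reached the lowest CTRL library. ATP5G1 fell by 0.60 ± 0.08 on the log2 scale (adjusted p = 0.00018). ATP5G2 (chr12:54026510-54071192, minus strand) had 230, 238 and 247 CPM in OE cells, against 214, 243 and 232 CPM in CTRL cells, and these ranges overlapped (log2 fold change 0.05 ± 0.07, adjusted p = 0.572). Of the 3 c subunit genes 2 were thus called lower, and the difference between their changes and that of ATP5G2 was not tested.

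The promoters of 2 of these genes are shown because the genes make the same protein and 1 of them was called lower. They were read from RefSeq (GRCh38.p14) and are printed 5′ to 3′ for the 250 bases before the start. The capitals in ATP5MC2 mark a match to the NRF1 motif spelled out with the complex III genes, and no such match was found for ATP5MC1.
ATP5MC1 (ATP5G1), chr17:48892537-48892786, plus strand: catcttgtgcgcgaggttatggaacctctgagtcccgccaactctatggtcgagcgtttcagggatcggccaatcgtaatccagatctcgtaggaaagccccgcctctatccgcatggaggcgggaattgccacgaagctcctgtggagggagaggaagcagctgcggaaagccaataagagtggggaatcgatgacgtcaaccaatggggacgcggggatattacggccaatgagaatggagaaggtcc
ATP5MC2 (ATP5G2), chr12:53676084-53676333, minus strand: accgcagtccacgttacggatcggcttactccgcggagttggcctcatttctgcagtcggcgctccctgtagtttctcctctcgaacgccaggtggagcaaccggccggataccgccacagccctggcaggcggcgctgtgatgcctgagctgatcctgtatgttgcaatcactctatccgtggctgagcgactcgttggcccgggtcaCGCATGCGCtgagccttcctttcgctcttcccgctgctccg

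**Figure D2:**
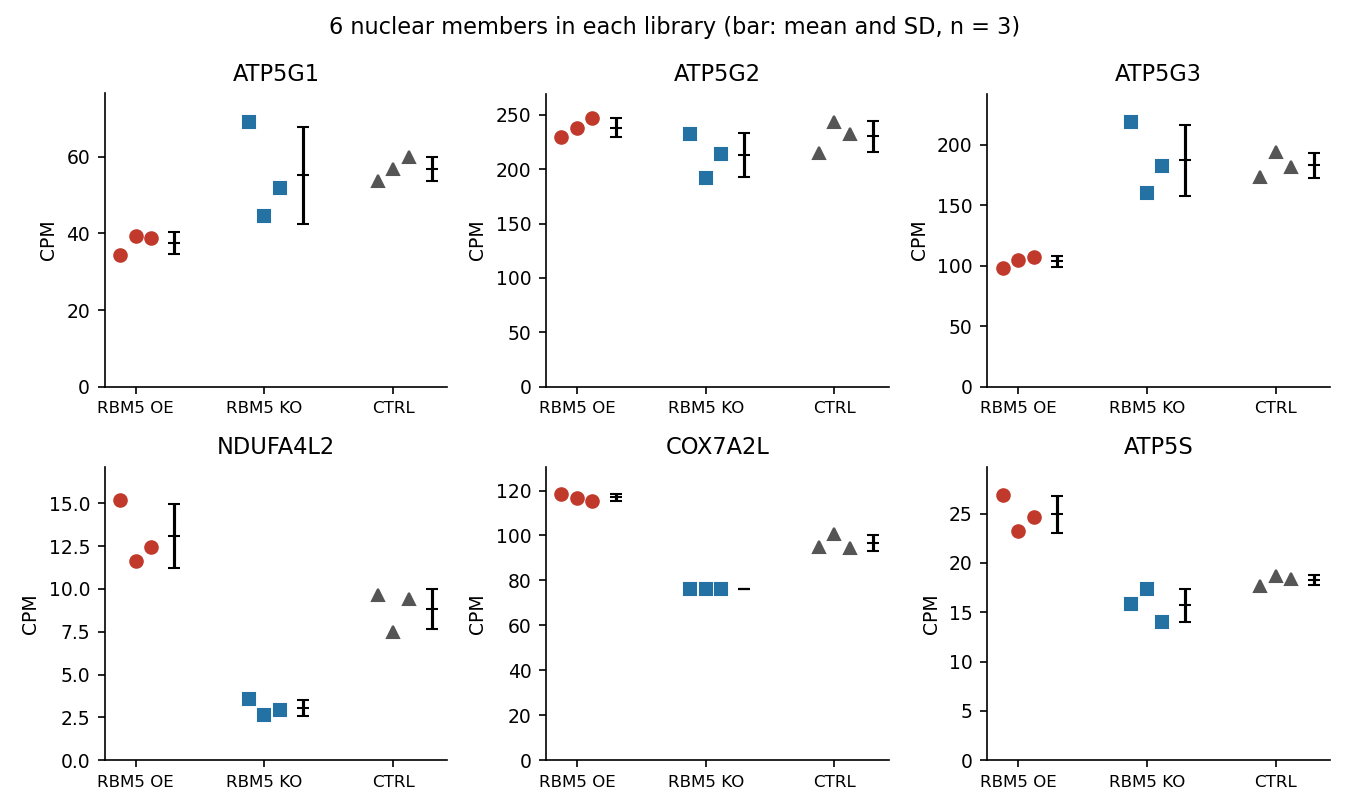
CPM (y axis, from 0) in each library of RBM5 OE, RBM5 KO and CTRL for 6 nuclear members, with mean and SD (n = 3) to the right of each group. ATP5G1 and ATP5G3 are lower in every OE library than in any CTRL library, ATP5G2 overlaps, and NDUFA4L2, COX7A2L and ATP5S lie above CTRL in OE and below it in KO.

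Complex III carries electrons from ubiquinol to cytochrome c, and all 8 of its tested nuclear rows were called lower in OE cells, with log2 fold changes between -0.46 and -0.17. The Rieske iron-sulfur protein UQCRFS1 (chr19:29696227-29704058, minus strand) had 168, 155 and 156 CPM in OE cells, against 202, 229 and 227 CPM in CTRL cells. It fell by 0.46 ± 0.07 on the log2 scale (adjusted p = 0.000425). The small subunit UQCR10 had 43.9, 47.8 and 44.1 CPM in OE cells, against 58.2, 68.2 and 58.9 CPM in CTRL cells. None of the OE libraries of these genes reached a CTRL library. The core protein UQCRC1 changed less (log2 fold change -0.21 ± 0.07, adjusted p = 0.0383) and its call was lost without CTRL replicate 2, OE replicate 1 or OE replicate 2 (adjusted p = 0.112, 0.138 and 0.114). With 1 library left out the adjusted p rose to at most 0.144 for UQCRB and 0.0510 for UQCRQ, so these calls could be lost too. On log2(TPM + 1) 6 of the 8 rows were called lower.

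Promoters of 68 of the 88 nuclear symbols were matched in the RefSeq table by current symbol, with 250 bases before and 50 after the start. They were searched on both strands for motifs of factors known to act at respiratory genes: NRF1 (GCGCANGCG or its reverse complement CGCNTGCGC), ETS factors such as GABP (CCGGAAGT or ACTTCCGG) and YY1 (AAGATGGC or GCCATCTT). The NRF1 motif stood in 32.4% of member promoters, against 8.05% of all 27305 promoters, the ETS motif in 13.2% against 4.44%, and the YY1 motif in 16.2% against 3.03%. Among members lower in OE cells the shares were 37.2%, 16.3% and 16.3% (n = 43), and among tested members that were not lower 23.8%, 9.52% and 19% (n = 21). The shares describe letters in a window and are no measure of binding. The set of all promoters was matched to the members neither in base composition nor in expression. The promoters of UQCRFS1, UQCR11 and UQCRQ are shown as examples from the complex in which every tested row was lower, 5′ to 3′ for the 250 bases before the start (GRCh38.p14), with the matches in capitals, none of which overlap.
UQCRFS1, chr19:29213152-29213401, minus strand: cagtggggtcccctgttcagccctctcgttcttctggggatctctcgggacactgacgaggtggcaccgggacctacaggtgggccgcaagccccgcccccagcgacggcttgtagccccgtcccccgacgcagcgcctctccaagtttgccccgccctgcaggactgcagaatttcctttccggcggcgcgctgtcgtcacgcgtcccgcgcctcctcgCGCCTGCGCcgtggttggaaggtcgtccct
UQCR11, chr19:1605463-1605712, minus strand: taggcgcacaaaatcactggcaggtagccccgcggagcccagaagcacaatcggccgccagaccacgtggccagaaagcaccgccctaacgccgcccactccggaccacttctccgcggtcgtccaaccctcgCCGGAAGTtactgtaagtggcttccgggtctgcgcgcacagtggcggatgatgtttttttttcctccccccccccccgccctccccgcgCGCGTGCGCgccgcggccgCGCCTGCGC
UQCRQ, chr5:132866392-132866641, plus strand: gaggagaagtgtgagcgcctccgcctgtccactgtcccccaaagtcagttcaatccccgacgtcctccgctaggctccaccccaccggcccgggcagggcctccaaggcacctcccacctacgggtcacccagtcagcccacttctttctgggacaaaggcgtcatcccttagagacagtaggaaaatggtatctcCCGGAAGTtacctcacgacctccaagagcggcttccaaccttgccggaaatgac
UQCRFS1 holds the NRF1 motif, UQCR11 the NRF1 motif at 2 places and the ETS motif once, and UQCRQ the ETS motif once. UQCR11 had 77.9, 97.2 and 100 CPM in OE cells, against 117, 134 and 115 CPM in CTRL cells (log2 fold change -0.41 ± 0.10, adjusted p = 0.00608), and its call was lost in the fit of all 9 libraries and on log2(TPM + 1) (adjusted p = 0.0642 and 0.0622).

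In complex I the carrier protein NDUFAB1, which also serves mitochondrial fatty acid synthesis, had the smallest adjusted p. It had 42.4, 43.4 and 39.6 CPM in OE cells, against 63, 66.4 and 65.5 CPM in CTRL cells. NDUFAB1 (chr16:23592335-23607637, minus strand) fell by 0.63 ± 0.07 on the log2 scale (adjusted p = 5.34e-05), with no overlap of the groups. NDUFS5 (chr1:39491990-39500308, plus strand), an accessory subunit, had 55.8, 61 and 60.2 CPM in OE cells, against 81.1, 88.1 and 82.6 CPM in CTRL cells. It fell by 0.51 ± 0.07 on the log2 scale (adjusted p = 0.000207). The iron-sulfur core subunit NDUFS1 moved less, with 142, 143 and 142 CPM in OE cells, against 169, 161 and 171 CPM in CTRL cells (log2 fold change -0.23 ± 0.06, adjusted p = 0.0122), and missed the threshold without OE replicate 2 (adjusted p = 0.0587). The flavoprotein NDUFV1, which takes electrons from NADH, was not called (log2 fold change -0.13 ± 0.07, adjusted p = 0.171).

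In complex II the flavoprotein SDHA and the iron-sulfur protein SDHB were both lower. SDHA had 154, 165 and 166 CPM in OE cells, against 189, 204 and 207 CPM in CTRL cells (log2 fold change -0.30 ± 0.07, adjusted p = 0.00361). SDHB had 58.8, 55.4 and 55.9 CPM in OE cells, against 66.8, 72.5 and 71.7 CPM in CTRL cells (log2 fold change -0.31 ± 0.07, adjusted p = 0.00421). Neither gene overlapped between the groups. In the fit of all 9 libraries the SDHB call was lost (adjusted p = 0.0600). The membrane anchor SDHC was lower as well (-0.19, adjusted p = 0.0451), but its call was lost without CTRL replicate 2 or any of the OE libraries (adjusted p = 0.0857 to 0.141) and on log2(TPM + 1) (-0.13, adjusted p = 0.185), while the other anchor, SDHD, was not called (0.11, adjusted p = 0.288).

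In complex IV, COX6B1 (chr19:36139225-36149684, plus strand), an accessory subunit on the intermembrane side, had 100, 99.5 and 106 CPM in OE cells, against 132, 155 and 144 CPM in CTRL cells. It fell by 0.49 ± 0.07 on the log2 scale (adjusted p = 0.000342), and the groups did not overlap. COX5A fell by 0.19 ± 0.07 (adjusted p = 0.0429) but lost its call without CTRL replicate 2, OE replicate 1 or OE replicate 2 (adjusted p = 0.109, 0.144 and 0.135). COX4I1, the ubiquitous form of subunit 4, was not called (-0.17 ± 0.07, adjusted p = 0.0608), though it was called lower without CTRL replicate 3 (-0.21, adjusted p = 0.0171). Of the paralogs of subunit 7a, COX7A2 fell by 0.41 ± 0.07 (adjusted p = 0.000805), with 110, 113 and 114 CPM in OE cells, against 139, 161 and 149 CPM in CTRL cells. In the catalytic head of complex V, ATP5B, the beta subunit, fell by 0.29 ± 0.06 (adjusted p = 0.00241), with 805, 819 and 813 CPM in OE cells, against 949, 1043 and 988 CPM in CTRL cells. The alpha subunit ATP5A1 was not called (-0.01 ± 0.06, adjusted p = 0.929).

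The 3 nuclear members that were higher in OE cells were COX7A2L, NDUFA4L2 and ATP5S. None is a standard structural subunit of the complex its symbol names. COX7A2L is known to help join complexes III and IV into a supercomplex, NDUFA4L2 is a paralog of NDUFA4, which is now counted to complex IV, and ATP5S is now named DMAC2L. COX7A2L (chr2:42560686-42652228, minus strand) had 119, 117 and 115 CPM in OE cells, against 95, 101 and 94.4 CPM in CTRL cells. All OE libraries lay above CTRL (log2 fold change 0.28 ± 0.06, adjusted p = 0.00437). NDUFA4L2 (chr12:57628686-57634498, minus strand) had 15.2, 11.6 and 12.4 CPM in OE cells, against 9.61, 7.49 and 9.41 CPM in CTRL cells (log2 fold change 0.57 ± 0.14, adjusted p = 0.00777). ATP5S (chr14:50779042-50802276, plus strand) had 26.9, 23.3 and 24.6 CPM in OE cells, against 17.7, 18.7 and 18.4 CPM in CTRL cells (log2 fold change 0.45 ± 0.09, adjusted p = 0.00189). On log2(TPM + 1) its call was lost (0.25, adjusted p = 0.128).

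In KO cells the same rows gave almost no calls. The spread between replicates in the fit (biological coefficient of variation) was 0.145 in the KO comparison, against 0.0956 in the OE comparison. Changes of the size seen in OE cells could thus go uncalled in KO cells. No nuclear subunit was called higher and 1 of 81, NDUFA4L2, was called lower, against 1.67% called lower and 0.837% called higher of all 14218 genes tested. At an unadjusted p under 0.05 there were 3 nuclear rows and no mitochondrial row, against 16.8% of all genes tested. NDUFA4L2 had 3.58, 2.62 and 2.94 CPM in KO cells, against 9.61, 7.49 and 9.41 CPM in CTRL cells. Its log2 fold change was -1.54 ± 0.19 (adjusted p = 0.00601), and without CTRL replicate 1 the adjusted p was 0.0576. Without CTRL replicate 3 and KO replicate 1 together it was -1.62 (adjusted p = 1.53e-06). COX7A2L had 76.1, 76.2 and 76.1 CPM in KO cells, against 95, 101 and 94.4 CPM in CTRL cells. Its KO libraries lay below every CTRL library, yet the adjusted p of 0.0505 just missed the threshold (log2 fold change -0.35 ± 0.08). COX7A2L was called lower without KO replicate 1 (adjusted p = 0.0321), without that library and CTRL replicate 3 together (-0.36, adjusted p = 0.00897) and by DESeq2 (adjusted p = 0.00619). With 1 library left out its adjusted p rose to at most 0.201, and on log2(TPM + 1) it was not called (adjusted p = 0.0729). ATP5S had 15.8, 17.4 and 14 CPM in KO cells, against 17.7, 18.7 and 18.4 CPM in CTRL cells, and was not called (-0.22 ± 0.12, adjusted p = 0.386). Since both comparisons use the same CTRL libraries, the opposite signs of these genes in OE and KO cells are not independent.

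The summed nuclear level had an SD of 75 TPM among OE libraries and 2159 TPM among KO libraries, against 527 TPM among CTRL libraries. The median log2 fold change of nuclear subunits in KO cells was -0.03, with 48 of 81 negative. Without KO replicate 1 it was -0.14, with 67 of 82 negative, and without KO replicate 2 it was 0.05, with 20 of 82 negative. The direction of the nuclear set in KO cells thus turned with the library left out. Without KO replicate 1 the flavoprotein NDUFV1 was called lower (-0.40, adjusted p = 0.0306), against -0.22 (adjusted p = 0.452) with all libraries. Without KO replicate 1 and CTRL replicate 3 together 10 of 81 nuclear rows and MT-ND3 were called lower and none higher (MT-ND3 -0.36, adjusted p = 0.0419), against 6.68% lower and 6.94% higher of all 14381 genes tested in that fit. Its median nuclear subunit was at -0.14, with 66 of 81 negative. That fit kept KO replicate 2, whose mean fragment length was 302 bases, against 264 bases in KO replicate 3. MT-ND3 had 527 CPM in KO replicate 2 and 785 CPM in KO replicate 3. The rows called lower included NDUFA3, NDUFB1 and ATP5J2. Like MT-ND3, they have under 200 bases of positions where a whole fragment can start. The part of fragment length in these calls was not tested.

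Of the 13 mitochondrially encoded subunits, 6 were lower, 1 was higher and 6 were not called in OE cells, with a median log2 fold change of -0.18, beside 20.2% lower and 19.8% higher of all genes tested. In 9 of 13 all OE libraries lay below CTRL and in 2 above, beside 25.5% and 26.1% of all genes tested. In KO cells none was called by edgeR, DESeq2 or limma-voom, with a median of 0.02. The plot of the 13 mRNAs by library gives their order along the chromosome.

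**Figure D3:**
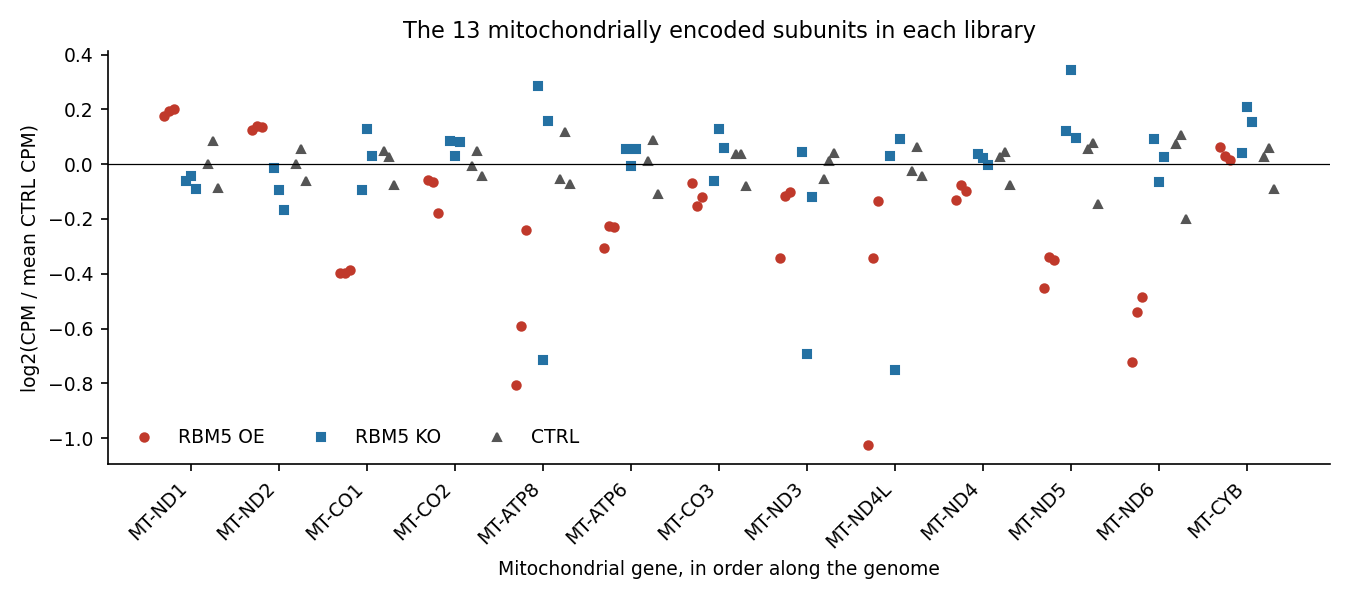
CPM of each mitochondrial mRNA in each library relative to the mean of CTRL (y axis, log2), in order along the genome (x axis), for RBM5 OE, RBM5 KO and CTRL. MT-CO1, MT-ND5 and MT-ND6 lie below CTRL in all OE libraries, MT-ND1 and MT-ND2 lie above, and the shortest mRNAs are low in KO replicate 2 and OE replicate 1.

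MT-CO1 (chrM:5904-7445, plus strand), the catalytic subunit of complex IV, had 15482, 15496 and 15604 CPM in OE cells, against 21079, 20752 and 19365 CPM in CTRL cells. The OE libraries lay close together and below every CTRL library (log2 fold change -0.39 ± 0.05, adjusted p = 0.000131). MT-ND5 (chrM:12337-14148, plus strand) had 1941, 2100 and 2080 CPM in OE cells, against 2760, 2798 and 2400 CPM in CTRL cells (-0.38 ± 0.07, adjusted p = 0.00125). MT-ND6 (chrM:14149-14673, minus strand) had 347, 395 and 410 CPM in OE cells, against 603, 618 and 499 CPM in CTRL cells (-0.58 ± 0.09, adjusted p = 0.000456). Neither of these complex I subunits overlapped between the groups. MT-ATP6, which forms the proton path of complex V, had 3653, 3861 and 3844 CPM in OE cells, against 4549, 4797 and 4189 CPM in CTRL cells (-0.25 ± 0.06, adjusted p = 0.00694). MT-ND1 (chrM:3307-4262, plus strand), another membrane subunit of complex I, moved the other way, with 4880, 4939 and 4970 CPM in OE cells, against 4317, 4579 and 4064 CPM in CTRL cells. Its log2 fold change was 0.19 ± 0.06 (adjusted p = 0.0187), and the call was lost without CTRL replicate 1 or any of the OE libraries (adjusted p = 0.0680 to 0.0909). MT-ND2 also lay above CTRL in all OE libraries but was not called (0.14 ± 0.05, adjusted p = 0.0626), except without CTRL replicate 2 (adjusted p = 0.0128), with library totals alone and on log2(TPM + 1) (adjusted p = 0.00928 and 0.0208). MT-CYB of complex III, with 3391, 3310 and 3275 CPM in OE cells, against 3307, 3376 and 3046 CPM in CTRL cells, was not called (0.04 ± 0.06, adjusted p = 0.624). MT-CO2, MT-CO3, MT-ND3 and MT-ND4 were not called, with values between -0.18 and -0.10, though without CTRL replicate 3 MT-CO3 and MT-ND4 were called lower (-0.15 and -0.14, adjusted p = 0.0245 and 0.0367). By DESeq2, with no filter on low counts and with the replicate number as a block, MT-ND3 was called lower (adjusted p = 0.0299, 0.0390 and 0.0490). On log2(TPM + 1) MT-ND3 was not called and its sign was positive (0.05, adjusted p = 0.643). The rRNAs MT-RNR1 and MT-RNR2 were not called either (-0.19 and -0.03, adjusted p = 0.175 and 0.766).

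MT-ATP8 and MT-ND4L gave lower calls that rested on few usable positions, as a gene is counted only over those where a whole fragment can start, its effective length. From the ratio of expected counts to TPM, the mean fragment length was 299 bases in OE replicate 1 and 302 bases in KO replicate 2, and 264 to 274 bases in the other libraries. In CTRL cells the effective length was 4.81 bases on average for MT-ATP8 and 41.9 bases for MT-ND4L. It was 83.0 bases for MT-ND3, which had 672, 787 and 795 CPM in OE replicates 1, 2 and 3. The part of fragment length in the values of these genes was not tested. MT-ATP8 had 48.1, 55.9 and 71.3 CPM in OE cells and 103, 51.2 and 93.9 CPM in KO cells, against 81.1, 91.3 and 79.9 CPM in CTRL cells. The values were lowest where fragments were longest. In OE cells MT-ATP8 had a log2 fold change of -0.52 ± 0.12 (adjusted p = 0.00517), and without OE replicate 1 it was -0.41 (adjusted p = 0.0219). In the fit of all 9 libraries its adjusted p was 0.0824, and on log2(TPM + 1) MT-ATP8 was called lower (-0.29, adjusted p = 0.0157). MT-ND4L had 190, 305 and 352 CPM in OE cells, against 380, 404 and 376 CPM in CTRL cells (-0.45 ± 0.17, adjusted p = 0.0479), and on log2(TPM + 1) it was not called (-0.19, adjusted p = 0.0854). It lost its call without CTRL replicate 1, CTRL replicate 2, OE replicate 1 or OE replicate 2 (adjusted p = 0.0537 to 0.118), by DESeq2 (adjusted p = 0.135) and in the fit of all 9 libraries (adjusted p = 0.147), and without OE replicate 1 its log2 fold change was -0.24. The nuclear copy MTATP6P1 had 102, 166 and 178 CPM in OE cells, against 214, 232 and 195 CPM in CTRL cells (-0.52 ± 0.16, adjusted p = 0.023), and lost its call without CTRL replicate 1 or CTRL replicate 2 (adjusted p = 0.0605 and 0.0779), by DESeq2, in the fit of all 9 libraries and on log2(TPM + 1) (adjusted p = 0.0652, 0.0955 and 0.0616). Without OE replicate 1 the log2 fold change of MTATP6P1 was -0.32.

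**Figure D4:**
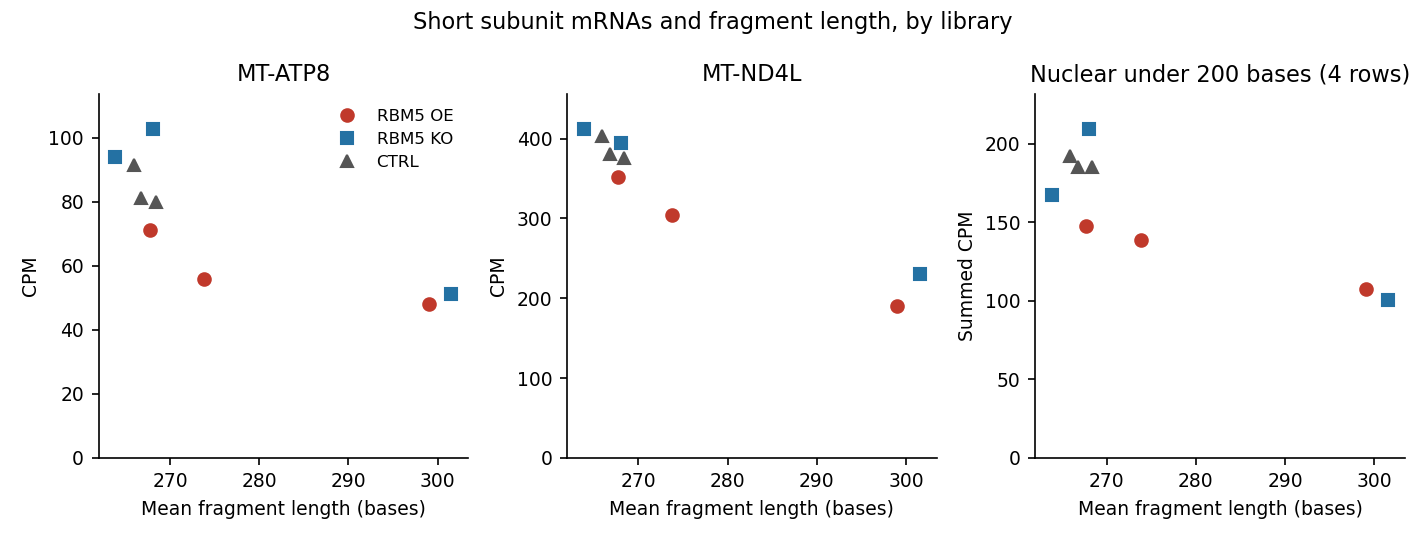
CPM (y axis, from 0) of MT-ATP8, of MT-ND4L and of 4 nuclear rows with effective length under 200 bases (summed), against mean fragment length in bases (x axis), 1 point per library in RBM5 OE, RBM5 KO and CTRL. OE replicate 1 and KO replicate 2, with the longest fragments, have the lowest values of all 3.

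Nuclear members were called lower in every length class. Grouped by effective length, the share of nuclear members called lower in OE cells was 100% under 200 bases (n = 4), 81.8% from 200 to 400 bases (n = 22), 57.1% from 400 to 800 bases (n = 28), 47.6% from 800 to 1600 bases (n = 21) and 83.3% above that (n = 6). Over all genes tested the same shares were 15.3%, 13.6%, 17.1%, 20.6% and 21.1%. Among other genes of at least 50 CPM in CTRL cells, they were 16.7%, 22.1%, 34.5%, 36.9% and 31.5%, so the members' share lay nearest to theirs from 800 to 1600 bases. The members were not held to this minimum and some lay below it, so the 2 sets are not matched in level. Without OE replicate 1, the library with long fragments, the median nuclear subunit had a log2 fold change of -0.25 and 74 of 81 were negative. On log2(TPM + 1) 42 nuclear rows were lower and 2 higher, against 12.3% and 14.8% of all genes tested. In KO cells 1 nuclear row was lower on that scale and none higher, against 0.577% and 0.19%. On the same scale 5 mitochondrial rows were lower and 2 higher in OE cells, and none was called in KO cells.

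Nuclear and mitochondrial subunits were compared as summed TPM, which is per length. The nuclear rows summed to 17546, 17508 and 17402 TPM in OE cells and to 22152, 18007 and 19031 TPM in KO cells, against 19404, 19961 and 20456 TPM in CTRL cells. The mitochondrial rows summed to 117391, 116394 and 115977 TPM in OE cells and to 127590, 131484 and 124070 TPM in KO cells, against 127354, 125838 and 124642 TPM in CTRL cells. Both sums were below every CTRL library in all OE libraries, and both overlapped CTRL in KO cells. The mitochondrial sum includes MT-ATP8 and MT-ND4L, whose values are uncertain. MT-ATP8 averaged 15872 TPM in OE cells, against 19370 TPM in CTRL cells, where it was the largest mitochondrial row. MT-ND4L averaged 8978 TPM in OE cells, against 10231 TPM in CTRL cells. The log2 ratio of the mitochondrial to the nuclear sum was 2.74, 2.73 and 2.74 in OE cells and between 2.53 and 2.87 in KO cells, against 2.71, 2.66 and 2.61 in CTRL cells. The ratio was higher than in CTRL cells by 0.08 in OE cells and by 0.04 in KO cells, with no test made. As summed CPM the OE difference was 0.04, and the OE libraries, at 2.55 to 2.58, lay inside the CTRL range of 2.44 to 2.60. Without KO replicate 2 the KO difference in summed TPM was -0.04. The share of counts from the mitochondrial mRNAs was 5.28% to 5.32% in OE cells and 5.69% to 6.14% in KO cells, against 5.60% to 5.98% in CTRL cells.

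**Figure D5:**
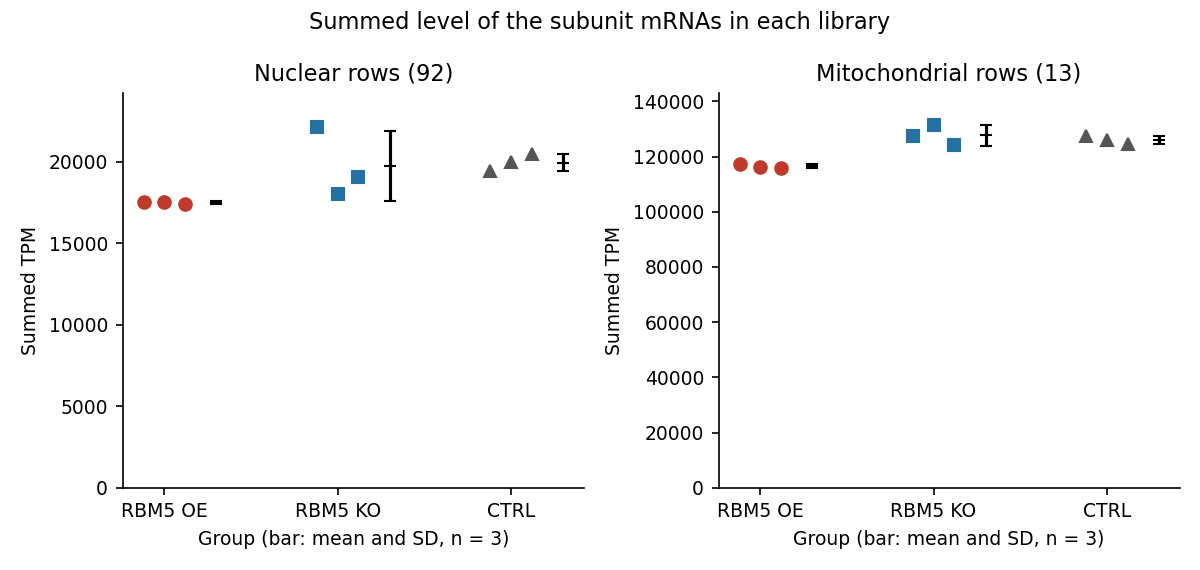
Summed TPM (y axis, from 0) of the 92 nuclear rows and the 13 mitochondrial rows in each library of RBM5 OE, RBM5 KO and CTRL, with mean and SD (n = 3). The OE libraries lie below CTRL in both panels, and KO replicate 1 has the highest nuclear sum. The mitochondrial sum includes MT-ATP8 and MT-ND4L, whose values are uncertain.

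Genes that act on these subunits were taken as lists. In OE cells the lower and higher calls were 12 and 0 of 22 for mitochondrial RNA processing, 18 and 1 of 26 for protein import, 10 and 0 of 18 for the tricarboxylic acid cycle, 18 and 5 of 42 for assembly factors, 31 and 3 of 78 for mitochondrial ribosomal proteins, 5 and 3 of 16 for mitochondrial DNA upkeep and transcription, and 4 and 1 of 9 for regulators of nuclear mitochondrial genes. These stand beside 20.2% lower and 19.8% higher over all genes tested. Among other genes of at least 50 CPM in CTRL cells, 16.7% to 36.9% were lower and 0% to 19.5% higher, by length class. The lists were not matched in level to either set. Cytosolic ribosomal proteins gave 4 lower and 3 higher calls of 84, and 4 lower and 14 higher on log2(TPM + 1). The nuclear-retained RNAs NEAT1 and MALAT1 were higher in OE cells (0.68 and 0.23, adjusted p = 0.00308 and 0.0195), the MALAT1 call being lost without CTRL replicate 1, CTRL replicate 2, OE replicate 1 or OE replicate 2 (adjusted p = 0.0538 to 0.0925), and their part in the subunit values was not tested. HSPE1, the co-chaperonin of the matrix, fell by 1.42 ± 0.09 (adjusted p = 1.33e-06), the import pore subunit TOMM40 by 0.81 ± 0.07 (adjusted p = 1.44e-05) and DLAT, a subunit of pyruvate dehydrogenase, by 0.83 ± 0.07 (adjusted p = 1.13e-05). Of the enzymes that make mitochondrial RNA, the polymerase POLRMT fell by 0.54 ± 0.07 (adjusted p = 0.00018), and the RNA processing proteins TBRG4 and ELAC2 fell by 0.73 and 0.67. The complex I assembly factor ACAD9 fell by 0.73 ± 0.08 (adjusted p = 4.35e-05) and the copper chaperone COX19 was higher (0.94 ± 0.09, adjusted p = 1.63e-05). Among the regulators, the corepressor NRIP1 was higher (1.96 ± 0.13, adjusted p = 2.03e-06), and the coactivator PPARGC1B and the nuclear receptor ESRRA fell by 0.61 and 0.55, the PPARGC1B call being lost on log2(TPM + 1) (adjusted p = 0.0942). NRF1 itself was not called (0.01 ± 0.09, adjusted p = 0.95). MYC, a broad activator of growth genes, fell by 0.51 ± 0.06 (adjusted p = 9.44e-05). In KO cells MYC (-0.44 ± 0.09, adjusted p = 0.0363) and the complex I assembly factor NDUFAF3 (-0.42 ± 0.09, adjusted p = 0.0467) were the members of these lists called lower, and none was called higher, with all libraries. Both calls were lost without any single library other than KO replicate 1 (adjusted p = 0.0855 to 0.177 for MYC and 0.0970 to 0.181 for NDUFAF3). Without CTRL replicate 3 and KO replicate 1 together both were called lower (adjusted p = 0.000959 and 0.00109). In that fit the lower and higher calls in KO cells were 4 and 0 of 42 for assembly factors, ACAD9 among them (-0.33, adjusted p = 0.0311), 5 and 0 of 26 for protein import, 7 and 0 of 77 for mitochondrial ribosomal proteins, 2 and 0 of 18 for the tricarboxylic acid cycle and 1 and 2 of 9 for the regulators, where PPARGC1B was higher (0.44, adjusted p = 0.00847).

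Rows that did not pass the filter numbered 11 in each comparison. COX4I2, COX6A2, COX7B2, COX8C and ATP5EP2 had no counts in any library, which allows up to 3 counts, or 0.118 CPM in the smallest library, for counting error alone. COX6B2, COX7A1 and ATP5L2 and the second rows of SDHD and UQCR11 had at most 0.491 CPM in any library, and the second row of NDUFA7 had at most 2.98 CPM. COX4I2, COX6A2 and COX7A1 are the forms known from lung or striated muscle, and COX6B2, COX7B2 and COX8C from testis. ATP5EP2 and the tested COX6A1P2 are now annotated as pseudogenes. COX6A1P2 shares sequence with COX6A1 and its level, 3.63 to 5.93 CPM in CTRL cells, is uncertain.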

How the data were processed

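RNA from 9 libraries was depleted of ribosomal RNA and sequenced in pairs. Per the submitters' processing notes, the authors used Trim Galore, STAR 2.7.1a, GATK 4.1.2.0 and RSEM on hg19 (GRCh37.p13) and deposited expected counts and TPM per gene, unscaled between libraries. No strand was used in counting. Expected counts were rounded and tested in edgeR 4.0.16 (R 4.3.3) by the quasi-likelihood test with TMM scaling and filterByExpr, 1 fit per comparison over its 6 libraries, and p-values were adjusted by Benjamini-Hochberg over all genes tested, with a threshold of 0.05. Rows for 92 spike-ins were left out. SE is the log2 fold change over the square root of F. CPM used TMM over all 9 libraries. Fold changes on log2(TPM + 1) came from limma 3.58.1. DESeq2 1.42.0 and other alternatives were run, and the code was tested on simulated data. The replicates are labelled biological, and p-values measure only the spread between these samples. Gene intervals came from the GENCODE annotation lifted to GRCh37. Named genes were all mitochondrial members and those failing the filter, core subunits, paralogs, and up to 6 nuclear members per direction with the smallest adjusted p. UQCR10, UQCR11, UQCRB, UQCRQ, SDHC, SDHD and the members of other lists beyond the 4 smallest adjusted p were named after their values were seen. Members and lists were chosen with earlier results of these data known.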

Additional observations from a re-analysis of the deposited data

How the results depend on the processing

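No result called with the main settings turned its sign under any alternative run. The 1 nuclear subunit lower in KO cells became 2 under DESeq2, RLE scaling, library totals alone, scaling without mitochondrial genes, a CPM minimum of 1 in 3 libraries and all 9 libraries in 1 fit, and COX7A2L was the added gene where its own adjusted p passed. Leaving out each library in turn gave 0 to 3, and leaving out CTRL replicate 3 and KO replicate 1 together gave 10, with 1 mitochondrial subunit lower. The fit without both kept KO replicate 2, the KO library with long fragments. In OE cells the 53 lower nuclear subunits became 30 in the fit of all 9 libraries, where the KO libraries enter the estimate of spread, and 38 to 54 when each library was left out. The 1 higher mitochondrial subunit became 2 with library totals alone and on log2(TPM + 1), where MT-ND2 joined MT-ND1, and 0 to 2 when each library was left out. The OE difference in the log2 ratio of mitochondrial to nuclear TPM was 0.13 without MT-ATP8, MT-ND4L and MT-ND6 and 0.04 on summed CPM, where OE and CTRL overlapped, against 0.08 on summed TPM of all members. With the replicate number as a replicate block, 1 nuclear subunit was lower in KO cells, and 45 were lower and 3 higher in OE cells. The numbers did not pair the libraries, since same-numbered deviations had correlations between -0.29 and 0.12 in KO and between -0.03 and 0.03 in OE cells. Libraries with different numbers could still deviate together. The largest correlation of any pair was 0.40, between KO replicate 1 and CTRL replicate 3, the libraries left out together in 1 alternative. No scaling moved the median of all genes by over 0.1. Depth limits the rows at low CPM, such as NDUFA4L2.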
